A study of Homo sapiens with 4 samples.

Results

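The genes for the proteins of the mitochondrial ribosome, the MRPL and MRPS genes, were examined in H9 cells after knockdown of the RNA helicase UPF1. They were chosen by symbol, as MRPL or MRPS followed by a number and at most 1 letter, and 76 of the 15942 genes in the table met this rule, 48 with an MRPL and 28 with an MRPS symbol. H9 is an established human embryonic stem cell line. It was transfected with a small interfering RNA against UPF1 (siUPF1, 2 libraries, replicates 1 and 2) or with the control small interfering RNA siLuc (2 libraries, called control a and control b because their count columns carry the same name). Every library came from H9 cells grown on Matrigel in DMEM/F12 with E8 supplement, with no genetic change named. The treatment text common to the 4 libraries speaks of an actinomycin D time course and of siUPF3A in place of siUPF1, and gives no time for any library. No source says whether replicate libraries are separate cultures, and p-values may therefore reflect technical spread alone.

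Mitochondria hold their own ribosome, which translates the few mitochondrially encoded mRNAs, all of them for subunits of the respiratory chain and the ATP synthase. Its ribosomal RNAs are transcribed from mitochondrial DNA, but every one of its proteins is encoded in the nucleus, translated in the cytosol and imported. Some of these proteins descend from bacterial ribosomal proteins and others were added during mitochondrial evolution. UPF1 is the central helicase of nonsense-mediated decay, which degrades mRNAs with a stop codon that lies well ahead of an exon junction, and it also acts in other routes of mRNA decay. The comparison asks whether these nuclear mRNAs changed in level on loss of UPF1.

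Depth was 10058515 and 11200973 counts in siUPF1 replicates 1 and 2, against 8887239 and 9937231 in control a and control b, which makes the siUPF1 libraries 12.9% deeper. UPF1 itself had 60.8 and 78.2 CPM (counts per library total, scaled with TMM factors) in siUPF1 replicates 1 and 2, against 219 and 205 CPM in control a and control b, so 32.8% of its control level remained. All 10 pluripotency markers were detected, between 83.4 and 501 CPM, and summed to 2060 to 2236 CPM in siUPF1 libraries and 2361 to 2532 CPM in siLuc libraries. edgeR called 6 of the 10 down and 0 up, where 9.14% of all tested genes were called down, and their log2 fold changes had a median of -0.20. The markers had a median of 0.719 reads per transcript base. Of all genes at 0.6 or more reads per base 21.7% were called down, with a median log2 fold change of -0.14. Whether the markers differed from genes of like density was not tested. The markers called down numbered 0 when control a was left out (where 2 were lower at an unadjusted p of 0.05), 4 without control b, 9 without siUPF1 replicate 1, 2 without siUPF1 replicate 2, 2 with a trend on read density removed and 3 by DESeq2. Of 13 differentiation markers 5 were high enough to test, none above 12.9 CPM, and they summed to 27.6 to 27.7 CPM in siUPF1 libraries and 28.8 to 29.9 CPM in siLuc libraries. Within that sum FOXA2, an endoderm factor, had 0.600 and 0.535 CPM in siUPF1 replicates 1 and 2, against 4.98 and 4.09 CPM in control a and control b, and fell (log2 fold change -2.97, adjusted p = 7.05e-14, edgeR). MIXL1, a factor of mesendoderm, fell (-0.82, adjusted p = 0.0073, edgeR), though not without control b (0.18) or by DESeq2 (0.2), and GATA3, a factor of trophoblast, rose (1.19, adjusted p = 6.67e-05, edgeR). The part of these markers in any result below was not tested, and in bulk RNA fewer cells of a type and less RNA per cell cannot be told apart.

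All 76 mitochondrial ribosomal protein genes passed the low-count filter and 1 of them, MRPL49, rose. None fell and 75 did not pass the test at the 0.05 level (quasi-likelihood F-test of edgeR, Benjamini-Hochberg adjustment over 15557 genes). The 1 call is 1.32% of the members, where 25.9% of all tested genes were called, 16.8% up and 9.14% down. At an unadjusted p of 0.05, 1 member was higher and 3 were lower, where 21.3% of all genes were higher and 15.2% lower. DESeq2 called 0 members, with 1 higher and 0 lower at its unadjusted p of 0.05, where it called 8.19% of all genes up and 2.99% down. By limma-voom MRPL49 alone was called, where 16.1% of all genes were called up and 8.8% down. The 95% intervals bound each change in counts, on a spread that edgeR shared across genes. No source says whether repeated reads were removed before counting, and what that would do to these fold changes was not tested. The 95% interval of the log2 fold change lay within 0.5 of 0 for all 76 members, which is a 1.41-fold change either way, within 0.4 for 72 and within 0.3 for 52. The interval that reached farthest from 0 was that of MRPL33, a small protein of the large subunit, with a lower end of -0.50.

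**Figure D1:**
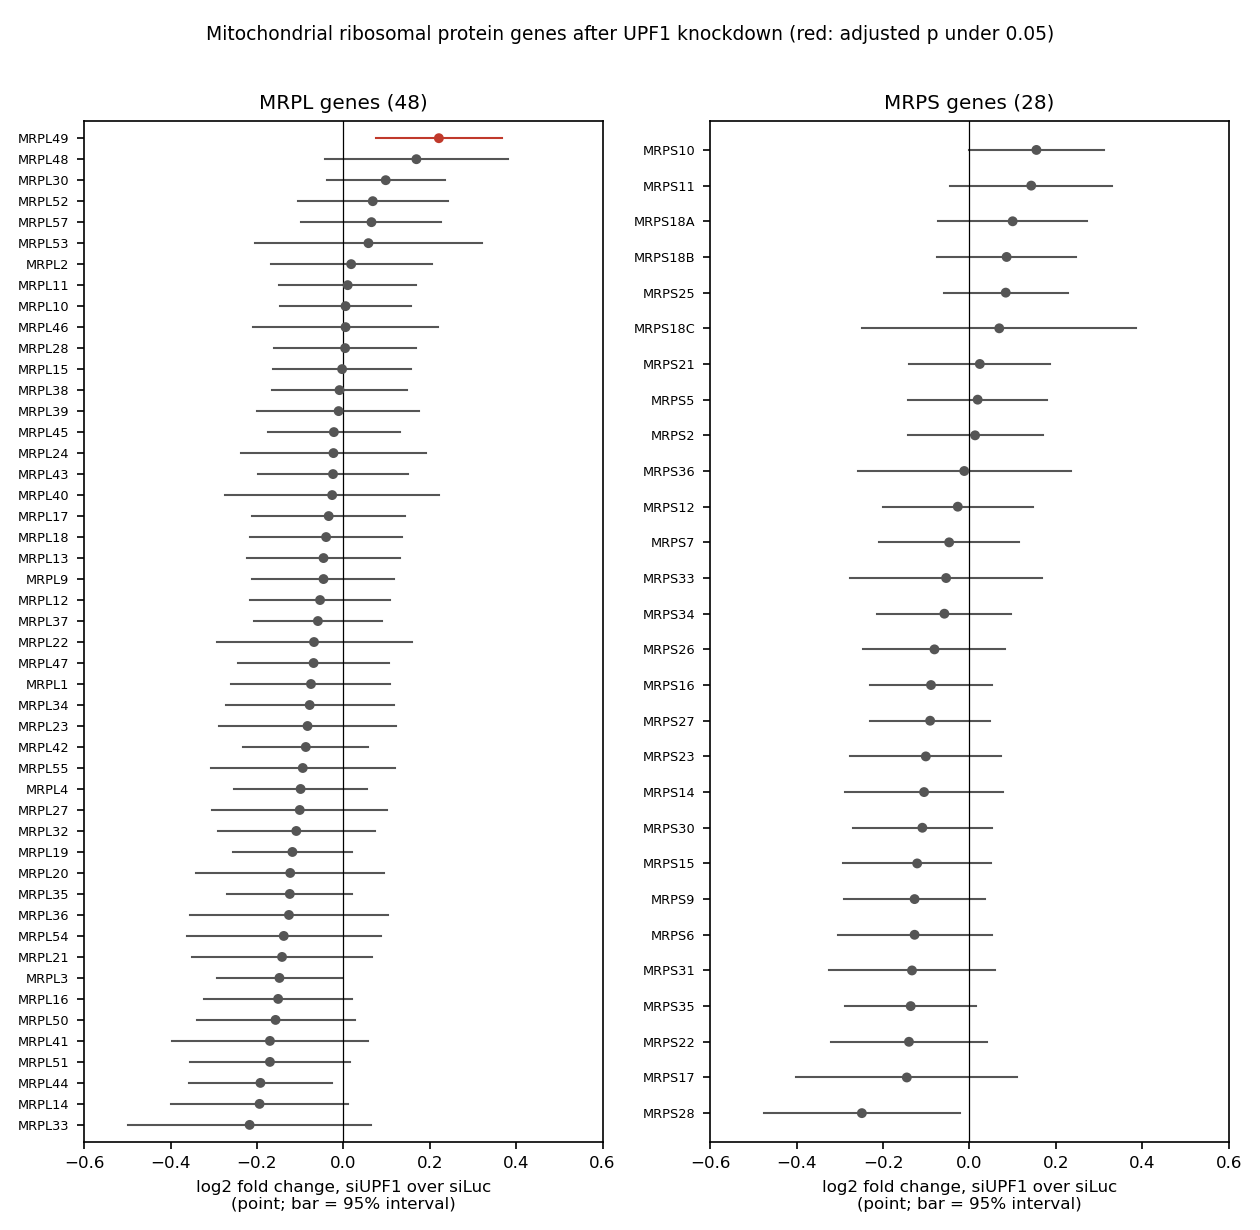
Log2 fold change (x axis) of each of the 48 MRPL genes (left) and 28 MRPS genes (right), siUPF1 over siLuc; points are estimates from edgeR, bars are 95% intervals and red marks an adjusted p under 0.05. MRPL49 at 0.22 is the single red point, and every interval lies between -0.5 and 0.5.

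Log2 fold changes of the members ran from -0.25 for MRPS28 to 0.22 for MRPL49, with a median of -0.06 and quartiles of -0.12 and 0.004. The median over all tested genes was -0.007. Their SD across members was 0.094, close to the median SE of a single member, 0.089, whereas the SD across all tested genes was 0.402 with a median SE of 0.090. The median size of the log2 fold change, regardless of sign, was 0.087 for members and 0.151 for all genes. Estimates were below 0 for 56 members and above 0 for 20, so 73.7% were negative, against 51.4% of all tested genes. The siUPF1 libraries lay below both controls for 34 members (44.7%), above both for 9 (11.8%), and the groups overlapped for 33 (43.4%). Over all tested genes siUPF1 lay below both controls for 31.1% and above both for 32.3%, 63.4% in all.

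Members are short and well expressed mRNAs. Their transcripts, in the lengths behind the deposited RPKM values, had a median of 1189 bases, against 2740 bases over all tested genes, and their read density had a median of 0.401 reads per transcript base per library, against 0.172. The densest gene with 100 or more counts had 1.12 reads per base. Of the members, 70 had at least 0.25 reads per base, as did 5431 of all tested genes. Among those 5431 genes the median log2 fold change was -0.06, the same as that of the members, 66.2% of estimates were negative, 41.6% had siUPF1 below both controls and 20.7% above both, 62.2% in all. Of them 17.6% were called, 8.38% up and 9.22% down, where 1.32% of the members were called, 73.7% had negative estimates and 11.8% had siUPF1 above both controls. These differences between members and genes of like density were not tested. In bins of rising read density the share of genes called up fell, being 21.1% under 0.1 reads per base and 1.84% at 0.6 or more, and the share called down was 10.2% and 21.7% in the same bins. What read density does to the fold changes of the members was not tested beyond removing its trend from each library. After that the members' median was -0.03, MRPL49 was still called and MRPL19 and MRPL44 were called down. In the same fit 2207 of 15555 genes were called up and 1968 down.

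**Figure D2:**
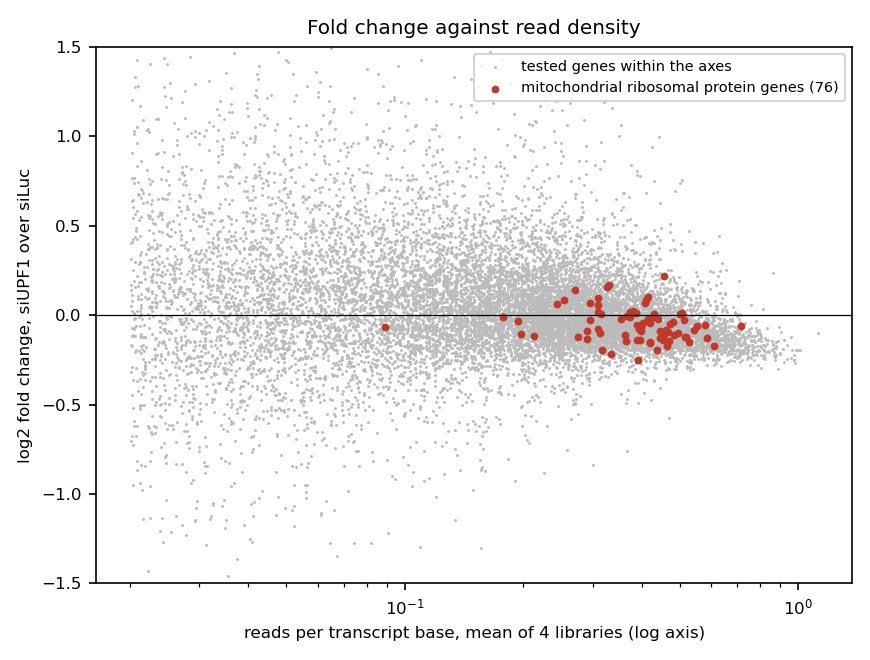
Log2 fold change, siUPF1 over siLuc (y axis), against reads per transcript base averaged over the 4 libraries (x axis, log scale), for 13963 tested genes (grey) and the 76 mitochondrial ribosomal protein genes (red); 1594 tested genes below 0.02 reads per base or beyond 1.5 in either direction are not drawn. Members sit between 0.0888 and 0.716 reads per base, inside the cloud of other genes, which tilts below 0 at high density.

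In their median, members differed at least as much between the libraries of a group as between the groups. The members' median log2 ratio of siUPF1 replicate 2 over replicate 1 was -0.106, and 67 of 76 members were lower in replicate 2. The ratio of control b over control a was -0.064, and 63 of 76 members were lower in control b. Over all tested genes these ratios were -0.002 and 0.0. In both groups the library in which members were lower was the deeper one. Against the mean of the controls, the members' median was -0.022 in siUPF1 replicate 1 and -0.108 in siUPF1 replicate 2. The sum over the 76 members was 4148 and 3894 CPM in siUPF1 replicates 1 and 2, against 4213 and 4078 CPM in control a and control b, so the summed levels of the groups overlap.

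**Figure D3:**
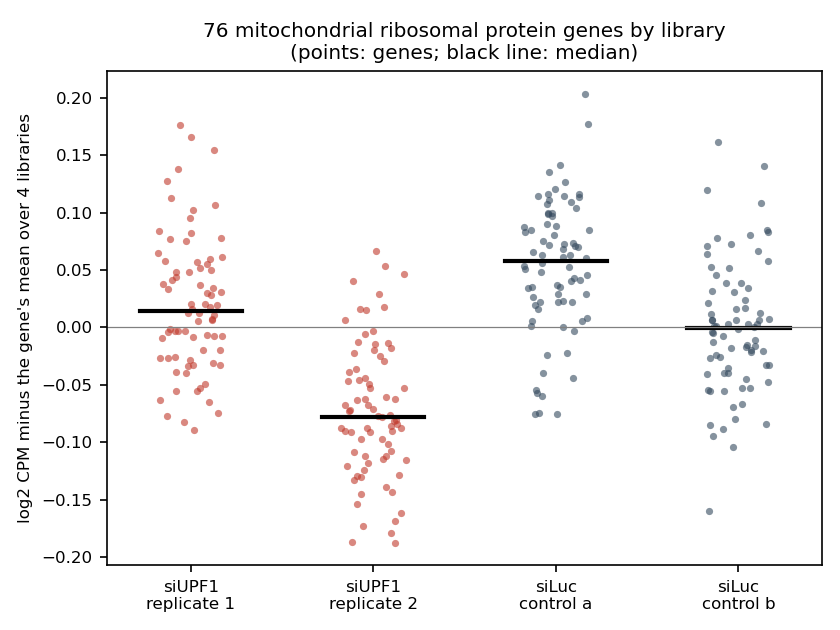
Level of each of the 76 genes in each library (x axis), as log2 CPM minus the mean of that gene over the 4 libraries (y axis); points are genes, black lines medians, red siUPF1 and blue siLuc. The median is highest in control a and lowest in siUPF1 replicate 2, with siUPF1 replicate 1 and control b between them.

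MRPL49 encodes a mitochondria-specific protein of the large subunit. It had 100.3 and 92.8 CPM in siUPF1 replicates 1 and 2 (1003 and 1042 counts), against 85.8 and 80.0 CPM in control a and control b (758 and 802 counts). Both siUPF1 libraries lay above both controls. The means were 96.6 ± 5.32 CPM after siUPF1 and 82.9 ± 4.06 CPM after siLuc (SD, n = 2 each), a log2 fold change of 0.22 (SE 0.07, adjusted p = 0.0156, by the quasi-likelihood test of edgeR, Benjamini-Hochberg adjusted). The call rested on all libraries but siUPF1 replicate 2. The adjusted p of the same edgeR test was 0.078 without control a, 0.339 without control b and 0.0938 without siUPF1 replicate 1, it was 0.00254 without siUPF1 replicate 2, and DESeq2 gave 0.183, so that alternatives ran from 0.00254 to 0.339.

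The annotation of MRPL49 holds a transcript classed as a target of nonsense-mediated decay. In GENCODE release 29 its coding transcript has 4 exons and an open reading frame of 166 codons. The decay-annotated transcript has the same reading frame and 5 exons, with an exon junction 70 bases after the stop codon, past the usual 50-base limit for triggering decay. The last bases of the reading frame, alike in both transcripts, are shown to place that stop codon, which is in capitals. They lie on the forward strand at chr11:65125843-65125872 (GRCh38).
MRPL49 coding transcript: aaagcctggctcttggagaaaggcttcTGA
Counts were made per gene and do not separate the transcripts. MRPL49 exons also overlap exons of FAU and SYVN1 on the opposite strand in the annotation, and no source used here says whether counting used strand, so reads of these genes may be mixed. FAU, which encodes a ubiquitin-like protein fused to a protein of the cytosolic small subunit and whose annotated start lies 49 bases from that of MRPL49, had 34.3 and 31.4 CPM in siUPF1 replicates 1 and 2, against 40.2 and 36.3 CPM in control a and control b. Its log2 fold change was -0.22 (SE 0.10, adjusted p = 0.102, same edgeR test) and, without siUPF1 replicate 1, -0.28 (adjusted p = 0.0352). SYVN1, an endoplasmic reticulum ubiquitin ligase, had 64.5 and 68.1 CPM in siUPF1 replicates 1 and 2, against 71.4 and 70.1 CPM in control a and control b (log2 fold change -0.09, SE 0.08). Both lay below their controls where MRPL49 lay above its own.

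The members nearest to a call in the downward direction were MRPL44 and MRPS28. MRPL44, a large-subunit protein with a ribonuclease III fold, had 54.0 and 49.4 CPM in siUPF1 replicates 1 and 2, against 59.9 and 58.3 CPM in control a and control b. The groups did not overlap, and the log2 fold change was -0.19 (SE 0.09, adjusted p = 0.0768, same edgeR test). Its adjusted p was 0.0184 without siUPF1 replicate 1 (edgeR). MRPS28, a small-subunit protein, had 26.1 and 24.5 CPM in siUPF1 replicates 1 and 2, against 29.2 and 30.8 CPM in control a and control b. It had the most negative estimate of the set, -0.25 (SE 0.12, adjusted p = 0.099, edgeR), again without overlap of the groups. MRPL3, the homologue of bacterial ribosomal protein L3 near the peptidyl transferase centre, had 91.8 and 85.1 CPM in siUPF1 replicates 1 and 2, against 100.4 and 95.6 CPM in control a and control b (log2 fold change -0.15, SE 0.07, adjusted p = 0.127, edgeR). The 95% intervals of these 3 genes lay below 0, and none of them passed after adjustment over all genes.

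The members with the largest uncalled changes included MRPL33 and MRPL14 as well. MRPL33 had 16.8 and 15.1 CPM in siUPF1 replicates 1 and 2, against 19.8 and 17.4 CPM in control a and control b, and a log2 fold change of -0.22 (SE 0.14). MRPL14, the homologue of a bacterial protein at the interface of the subunits, had 32.8 and 30.3 CPM in siUPF1 replicates 1 and 2, against 36.4 and 35.7 CPM in control a and control b (log2 fold change -0.19, SE 0.11). In the other direction MRPS10, a small-subunit head protein, had 76.2 and 70.1 CPM in siUPF1 replicates 1 and 2, against 65.7 and 65.5 CPM in control a and control b. Its log2 fold change was 0.16 (SE 0.08, adjusted p = 0.138, edgeR), and without siUPF1 replicate 2 it was 0.22 (adjusted p = 0.0399). Without siUPF1 replicate 1, MRPL3, MRPL44, MRPL50 and MRPL51 were called down (adjusted p of 0.0359, 0.0184, 0.0282 and 0.0344, same edgeR test), and MRPL49 was not called. Which members were called therefore depended on the siUPF1 library left out, and genes outside the set had calls under those fits too. The members' median log2 fold change was -0.11 without siUPF1 replicate 1 and -0.02 without siUPF1 replicate 2. That of all tested genes was -0.001 and -0.007. Whether the members differed from all genes in those fits was not tested.

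Summed levels of large-subunit and small-subunit genes had nearly the same ratio in every library. Large-subunit protein genes, counting MRPS18A and MRPS30, whose products sit in the large subunit despite their names, numbered 50. Their summed level was 2688 and 2529 CPM in siUPF1 replicates 1 and 2, against 2736 and 2648 CPM in control a and control b. The 25 small-subunit genes summed to 1435 and 1343 CPM in siUPF1 replicates 1 and 2, against 1453 and 1407 CPM in control a and control b. The ratio of large to small was 1.87 and 1.88 in siUPF1 libraries and 1.88 and 1.88 in siLuc libraries (a ratio within a library does not depend on how that library is scaled). With 2 libraries against 2 an exact permutation test could not reach a p of 0.05, and none was run. The median log2 fold change was -0.06 for large-subunit genes, 1 of 50 called, and -0.08 for small-subunit genes, 0 of 25 called by edgeR or DESeq2 (1, MRPS28, at an unadjusted edgeR p under 0.05). MRPS36, the remaining member, has since been reassigned to the 2-oxoglutarate dehydrogenase complex, and had 25.1 and 21.8 CPM in siUPF1 replicates 1 and 2, against 24.1 and 23.1 CPM in control a and control b.

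Members were also grouped by evolutionary origin and by place in the ribosome. Of 47 members with a bacterial homologue 0 were called by edgeR or DESeq2, with MRPS28 and MRPL3 the 2 at an unadjusted edgeR p under 0.05, and the median log2 fold change was -0.07. Of 28 mitochondria-specific members 1 was called, MRPL49, and the median was -0.06. At the decoding site of the small subunit, MRPS12 stood at -0.03 (SE 0.09) and MRPS5 at 0.02 (SE 0.08). The 5 genes of the platform where mRNA exits, MRPS6, MRPS11, MRPS18B, MRPS18C and MRPS21, had a median of 0.07. The 3 genes of the stalk that receives translation factors, MRPL10, MRPL11 and MRPL12, lay between -0.05 and 0.01. The 4 genes around the peptidyl transferase centre, MRPL2, MRPL3, MRPL16 and MRPL27, had a median of -0.12, and the 6 of the exit tunnel, MRPL4, MRPL17, MRPL22, MRPL23, MRPL24 and MRPL45, had a median of -0.05. The 6 genes of the central protuberance, MRPL18, MRPL38, MRPL40, MRPL46, MRPL48 and MRPL52, had a median of -0.002, with MRPL48 highest at 0.17 (SE 0.11). In each of these 6 groups edgeR and DESeq2 called 0 genes, and the 1 gene at an unadjusted edgeR p under 0.05 was MRPL3.

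MRPS18A, MRPS18B and MRPS18C are paralogs of a single bacterial protein. MRPS18A had 50.9 and 50.3 CPM in siUPF1 replicates 1 and 2, against 49.1 and 45.5 CPM in control a and control b (log2 fold change 0.10, SE 0.09). MRPS18B had 67.3 and 61.9 CPM in siUPF1 replicates 1 and 2, against 62.7 and 59.1 CPM in control a and control b (0.09, SE 0.08). MRPS18C had 14.3 and 12.1 CPM in siUPF1 replicates 1 and 2, against 12.2 and 12.9 CPM in control a and control b (0.07, SE 0.16). All 3 estimates were above 0 and none passed, and the groups overlapped for MRPS18B and MRPS18C.

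Levels differed far more between members than between groups. Per kilobase of transcript, on the scale of CPM per kilobase averaged over the libraries, members ran from 8.89 to 71.8 with a median of 40.1. The highest were the small-subunit gene MRPS34 at 71.8, the large-subunit gene MRPL51 at 61.1 and the small-subunit gene MRPS6 at 58.7. The lowest were the exit-tunnel genes MRPL22 at 8.89 and MRPL17 at 19.4, with MRPS36 between them at 17.8. MRPS34 had 73.7 and 67.6 CPM in siUPF1 replicates 1 and 2, against 79.4 and 67.9 CPM in control a and control b, so its libraries overlapped. MRPL22 averaged 27.4 ± 0.383 CPM in siUPF1 libraries and 28.8 ± 1.06 CPM in siLuc libraries (SD, n = 2 each). Across the 76 genes the log2 fold change had a Spearman correlation of 0.30 with transcript length and -0.26 with read density. Genes are not independent replicates, and read density shares the read counts behind the fold change, so these are descriptions.

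A decay-annotated transcript and an AUG in the 5' UTR, features often tied to decay by UPF1, were less frequent among members than among all coding genes matched. In GENCODE release 29 a decay-annotated transcript was listed for 23 members (30.3%), against 40.9% of 13592 coding genes matched. An AUG in the 5' UTR was present for 30 members (39.5%), against 53.1%. Median coding length was 585 bases in members, against 1395, and median 3' UTR length was 420.5 bases, against 1065. The median log2 fold change was -0.05 in the 23 members with a decay-annotated transcript, MRPL49 among them, and -0.07 in the 53 without. Among other coding genes it was 0.01 with such a transcript and -0.03 without. For an AUG in the 5' UTR, the median was -0.03 in the 30 members with it and -0.09 in the 46 without. Other coding genes had -0.002 with it and -0.02 without. For a noncoding RefSeq transcript, the median was 0.007 in the 8 members with it and -0.07 in the 68 without. Other coding genes had 0.03 with it and -0.02 without. None of these differences was tested.

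A transcribed pseudogene of 1 member changed strongly. MRPS31P5 lies outside the symbol rule and was named after its values were seen. It had 65.9 and 64.0 CPM in siUPF1 replicates 1 and 2, against 31.1 and 32.0 CPM in control a and control b. All siUPF1 values lay above all control values, and the log2 fold change was 1.04 (SE 0.09, adjusted p = 5.07e-28, by the quasi-likelihood test of edgeR, Benjamini-Hochberg adjusted), with adjusted p between 6.93e-28 and 4.37e-05 over the alternatives. Its parent MRPS31, a small-subunit gene, had 37.4 and 36.8 CPM in siUPF1 replicates 1 and 2, against 41.6 and 39.8 CPM in control a and control b (log2 fold change -0.13, SE 0.10, adjusted p = 0.326, edgeR). The ratio of MRPS31P5 to MRPS31 counts was 1.76 and 1.74 in siUPF1 replicates 1 and 2, against 0.747 and 0.805 in control a and control b.

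The pseudogene transcript in GENCODE matched 907 bases of the MRPS31 coding sequence with 89.7% identity. That transcript has 920 bases, while the length behind the deposited RPKM values of MRPS31P5 was 2862 bases. Read in the frame of MRPS31 it meets its first stop after 55 codons, while the MRPS31 reading frame has 395 codons. The aligned stretch begins after the MRPS31 start codon. Counted back from it without a gap, the pseudogene has GGT at the place of that codon, and the 55 codons are counted from there. Those bases are not aligned, so they do not show how the frame opens. Whether the frame is translated was not tested. The stretches up to that stop are shown because they mark where the copies part. Capitals mark the first stop of the pseudogene in that frame, and in MRPS31 the bases aligned to it, which are not in frame there. Both are on the reverse strand and span an exon junction, MRPS31P5 at chr13:52189903-52194270 and MRPS31 at chr13:40767022-40771028 (GRCh38).
MRPS31P5: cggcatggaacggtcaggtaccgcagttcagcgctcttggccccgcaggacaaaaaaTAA
MRPS31: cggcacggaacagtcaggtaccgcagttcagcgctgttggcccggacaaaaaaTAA
No source used here says how reads that match both copies were counted, so the values of this pair are uncertain. MRPL45P2, another pseudogene in the table, had 20.8 and 18.6 CPM in siUPF1 replicates 1 and 2, against 16.4 and 16.5 CPM in control a and control b, with a log2 fold change of 0.26 (SE 0.14, adjusted p = 0.167, edgeR). In the annotation 34 members have at least 1 named pseudogene, 75 in all, with the most, 8, for MRPS21, and exons of 40 members overlap another gene, 29 of them on the opposite strand.

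**Figure D4:**
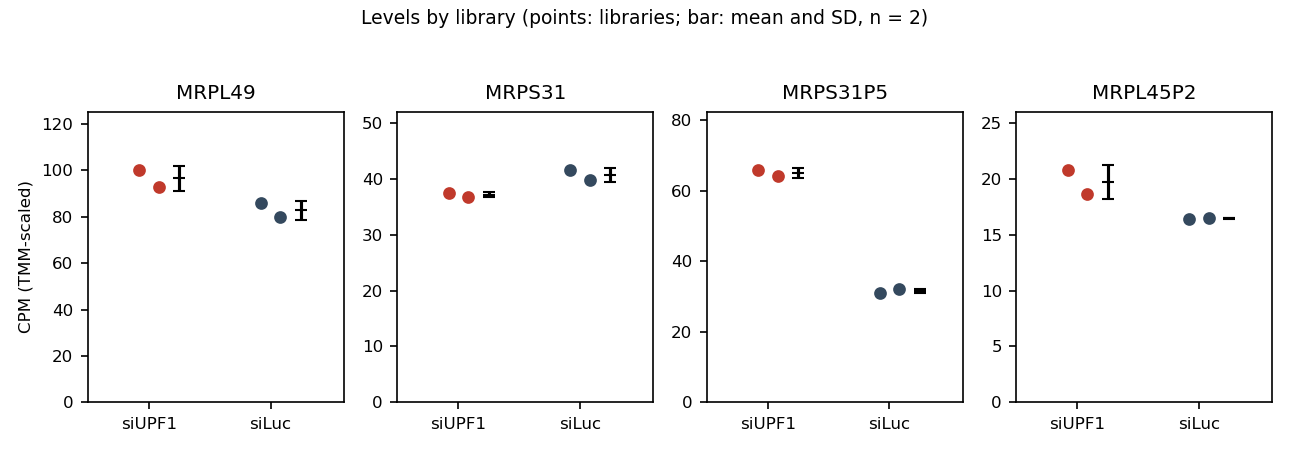
CPM (y axes, from 0, scaled separately) of MRPL49, MRPS31, MRPS31P5 and MRPL45P2 in each library; points are libraries (red siUPF1, blue siLuc), black bars mean and SD (n = 2). MRPS31P5 lies at 65.9 and 64.0 CPM after siUPF1 and 31.1 and 32.0 CPM after siLuc, while its parent MRPS31 lies slightly lower after siUPF1.

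Promoters of members were searched for motifs of known transcription factors. Promoters in RefSeq (GRCh38.p14, 250 bases before to 50 after the annotated start) were matched for 67 members and 11278 genes of the table. Motifs were sought on both strands. The ETS motif CCGGAAG, which GABP binds, was present in 28 member promoters (41.79%), against 17.8% of all. The TATA motif TATAAA was in 2 (2.99%), against 5.76%. Motifs of YY1 and NRF1 were searched too, but their letters were changed after counts had been seen, and no share is given for them. Another gene started within 500 bases on the opposite strand for 16 of the 67 (23.9%), against 12.1% of matched coding genes. A match is a description of letters and not a site in use.

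The promoters of MRPL3 and MRPS10 are printed as those of the 2 members with the smallest p that hold the ETS motif, with the match in capitals. The MRPL3 promoter, chr3:131502922-131503221 on the reverse strand, has it at position -32 from the start site. The MRPS10 promoter, chr6:42217812-42218111 on the reverse strand, has it at position -22.
MRPL3 promoter: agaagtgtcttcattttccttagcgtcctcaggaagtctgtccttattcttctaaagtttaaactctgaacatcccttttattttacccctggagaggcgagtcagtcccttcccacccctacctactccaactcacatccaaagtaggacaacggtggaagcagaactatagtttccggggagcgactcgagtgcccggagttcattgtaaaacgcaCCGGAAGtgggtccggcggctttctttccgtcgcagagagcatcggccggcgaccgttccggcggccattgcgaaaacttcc
MRPS10 promoter: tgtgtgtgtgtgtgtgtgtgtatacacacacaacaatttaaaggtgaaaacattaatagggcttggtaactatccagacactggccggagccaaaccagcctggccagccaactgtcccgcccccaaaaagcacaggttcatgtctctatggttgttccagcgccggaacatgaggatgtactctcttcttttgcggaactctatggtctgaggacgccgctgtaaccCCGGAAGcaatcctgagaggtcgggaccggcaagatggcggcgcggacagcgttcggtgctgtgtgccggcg
As given above, neither gene passed the test, and the estimate was above 0 for MRPS10 and below 0 for MRPL3.

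Of 14 genes outside the set whose start faces that of a member, 2 rose and 0 fell (14.3% called), where 16.8% of all tested genes rose and 9.14% fell. The 2 were EME2 and CYB5RL, and DESeq2 called neither (adjusted p of 0.0636 and 0.144). EME2, a subunit of a structure-specific endonuclease, had 6.60 and 10.7 CPM in siUPF1 replicates 1 and 2, against 5.43 and 3.49 CPM in control a and control b (log2 fold change 0.98, SE 0.22, adjusted p = 6.82e-05, edgeR). Its call was lost without control b (adjusted p = 0.0912) and without siUPF1 replicate 2 (0.0837), and its partner MRPS34 stood at -0.06 (SE 0.08). CYB5RL, named for its likeness to cytochrome b5 reductase, had 38.9 and 43.9 CPM in siUPF1 replicates 1 and 2, against 30.3 and 35.1 CPM in control a and control b (log2 fold change 0.34, SE 0.10, adjusted p = 0.00465, edgeR). Its call was lost without control a (0.279) and without siUPF1 replicate 2 (0.0811), and its partner MRPL37 stood at -0.06 (SE 0.08).

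Proteins of the mitochondrial ribosome with other names did not pass either. Of 6 such genes 0 were called by edgeR or DESeq2, and 0 had an unadjusted edgeR p under 0.05. DAP3, a GTP-binding protein of the small subunit, had 79.1 and 73.5 CPM in siUPF1 replicates 1 and 2, against 70.0 and 68.4 CPM in control a and control b (log2 fold change 0.14, SE 0.08). GADD45GIP1 stood at -0.16 (SE 0.09), CHCHD1 at -0.17 (SE 0.11), ICT1, a peptidyl-tRNA hydrolase built into the large subunit, at -0.14 (SE 0.11), AURKAIP1 at -0.11 (SE 0.08) and PTCD3 at 0.04 (SE 0.07).

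Of 30 genes for factors that assemble the mitochondrial ribosome 4 rose and 1 fell (16.7% called, where 25.9% of all tested genes were), with a median log2 fold change of 0.04, which ran from 0.0 to 0.08 with 1 library left out. DESeq2 called 2 up and 0 down (1 at its unadjusted p of 0.05). MTG2, a GTPase of large-subunit assembly, had 60.5 and 67.0 CPM in siUPF1 replicates 1 and 2, against 44.9 and 42.2 CPM in control a and control b (log2 fold change 0.55, SE 0.09, adjusted p = 3.61e-09, edgeR). NSUN4, a ribosomal RNA methyltransferase, had 95.2 and 88.6 CPM in siUPF1 replicates 1 and 2, against 64.6 and 65.9 CPM in control a and control b (log2 fold change 0.49, SE 0.08, adjusted p = 5.17e-09, edgeR). Both kept their call without each library in turn. MRM1, another ribosomal RNA methyltransferase, rose by 0.37 (SE 0.10, adjusted p = 0.00182, edgeR), with 0.0623 without control a and 0.0541 without control b. NGRN (0.22, SE 0.07) rose and MTERF3 (-0.35, SE 0.10) fell, named here after their values were seen. MTERF3 had an adjusted p of 0.0665 without control b, and NGRN had 0.0664 without control a, 0.338 without control b and 0.119 without siUPF1 replicate 1 (edgeR).

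Other genes of mitochondrial gene expression were examined by list. edgeR called 5.88% of translation factors, 17.6% of RNA processing genes, 13.6% of synthetases and 1 of the 10 mitochondrial DNA genes. Of all tested genes 25.9% were called, and of those at 0.25 or more reads per base 17.6%. Whether these lists differed from other genes was not tested. DESeq2 called 0 translation factors, 0 mitochondrial DNA genes and 0 synthetases (1, 1 and 3 at its unadjusted p of 0.05), and of the RNA processing genes 1, which rose. Of 17 translation factors MTRF1L, a release factor, rose by 0.22 (SE 0.07), and the elongation factors GFM1 (-0.18, SE 0.07) and GUF1 (0.17, SE 0.07) did not pass. Of 17 genes of mitochondrial RNA processing TRMU, a tRNA thiouridylase, rose by 0.54 (SE 0.08), while TRMT10C, a subunit of mitochondrial ribonuclease P, changed by -0.24 (SE 0.08) and FASTKD3 by -0.25 (SE 0.10), both called down. Of 22 mitochondrial aminoacyl-tRNA synthetase genes WARS2 (0.35, SE 0.09) and RARS2 (0.28, SE 0.08) rose and IARS2 (-0.22, SE 0.07) fell. Of 10 genes of mitochondrial DNA maintenance and transcription C10orf2, the helicase Twinkle, rose by 0.25 (SE 0.07), and POLRMT (-0.14, SE 0.07) and TFAM (-0.08, SE 0.07) did not pass. Without control a MTRF1L, TRMT10C, FASTKD3, WARS2, RARS2, IARS2 and C10orf2 lost their calls (adjusted p of 0.324, 0.263, 0.135, 0.24, 0.107, 0.145 and 0.126, edgeR), and TRMU did not under any library left out. Without control b the same held for MTRF1L (0.0885), TRMT10C (0.0824), FASTKD3 (0.284), RARS2 (0.105), IARS2 (0.115) and C10orf2 (0.0909). Without siUPF1 replicate 1 it held for FASTKD3 (0.0644) and RARS2 (0.0544), and without siUPF1 replicate 2 for TRMT10C (0.146) and IARS2 (0.079). Without siUPF1 replicate 1 GFM1 was called (0.0175), and without siUPF1 replicate 2 GUF1 (0.0196) and POLRMT (0.0443).

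Of 10 nuclear regulators of mitochondrial genes 0 rose and 2 fell (20.0% called). Of all tested genes 25.9% were called, 16.8% up and 9.14% down. The log2 fold changes of the regulators had a median of -0.13. By DESeq2 1 was called down, and edgeR called 1 down without control a, control b or siUPF1 replicate 1, and 4 without siUPF1 replicate 2. PPARGC1B, a coactivator of mitochondrial biogenesis, had 50.5 and 66.5 CPM in siUPF1 replicates 1 and 2, against 76.5 and 79.2 CPM in control a and control b (log2 fold change -0.41, SE 0.08, adjusted p = 5.44e-06, edgeR), called without each library in turn. PPRC1, a related coactivator, changed by -0.19 (SE 0.07, adjusted p = 0.0305, edgeR) and lost its call without control a (0.268), control b (0.149) and siUPF1 replicate 1 (0.112). HCFC1, a cofactor of GABP, stood at -0.16 (SE 0.07, adjusted p = 0.0986, edgeR) and was called only without siUPF1 replicate 2 (-0.22, adjusted p = 0.0324).

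Genes for the cytosolic ribosome and nuclear genes of the respiratory chain, whose mitochondrial subunits the mitochondrial ribosome makes, had medians further below 0 than the members. Of 84 cytosolic ribosomal protein genes tested 1 rose and 23 fell (28.6% called). Of all tested genes 25.9% were called, 16.8% up and 9.14% down. Of all genes at 0.6 or more reads per base 1.84% were called up and 21.7% down. A difference of the list from genes of like density was not tested. Its median read density was 0.695 reads per base and its median log2 fold change was -0.20. The median was -0.28 without siUPF1 replicate 1, -0.11 without siUPF1 replicate 2 and -0.07 with the trend on read density removed. RPL28 rose by 0.29 (SE 0.07), and RPL19 (-0.30, SE 0.08) and RPS3A (-0.25, SE 0.08) fell. This count moved with the libraries and the processing. The number called down was 1 without control a, 0 without control b (28 at an unadjusted p under 0.05), 58 without siUPF1 replicate 1, 0 without siUPF1 replicate 2 (4 at an unadjusted p under 0.05), 2 with the trend on read density removed and 0 by DESeq2 (11 at an unadjusted p under 0.05). RPL28 was not called without control b (adjusted p = 0.0789, edgeR), RPL19 without control b (0.0903) and siUPF1 replicate 2 (0.0958), and RPS3A without control a (0.0977), control b (0.123) and siUPF1 replicate 2 (0.0652). Both this list and the next were chosen by symbol pattern, so they also hold like-named genes such as RPL7L1 and the pseudogene UQCRBP1. Of 80 nuclear oxidative phosphorylation genes by that pattern 2 rose and 2 fell (5.0% called), with a median of -0.12. The median was -0.18 without siUPF1 replicate 1, -0.05 without siUPF1 replicate 2 and -0.05 with the trend removed, and DESeq2 called 0 of the 80 (2 higher and 1 lower at its unadjusted p of 0.05). NDUFA10 (0.26, SE 0.07) and NDUFC2 (0.36, SE 0.11) rose. COX6B2, with 0.712 ± 0.125 CPM in siUPF1 libraries and 2.03 ± 0.330 CPM in siLuc libraries (SD, n = 2 each), fell. ATP5J, named after its value was seen, fell by 0.30 (SE 0.12). Calls were lost without control a for NDUFC2 (adjusted p = 0.207, edgeR), COX6B2 (0.0981) and ATP5J (0.403), without control b for NDUFA10 (0.188) and ATP5J (0.0911), without siUPF1 replicate 1 for NDUFC2 (0.0592), and without siUPF1 replicate 2 for COX6B2 (0.0527) and ATP5J (0.127). Of the 80, 13 were called down without siUPF1 replicate 1. Whether any of these lists differed from the members was not tested.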

How the data were processed

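Per the labels' protocols, Trizol RNA of H9 cells went into standard Illumina libraries. Raw whole-number read counts per gene, not normalized, were deposited beside RPKM values, per the file headers. The submitters' processing notes name STAR, DESeq2 and the build hg19, with no version or role. Strand use, repeated reads and reads that match several genes are not given in the sources used here. The table gives no coordinates, so those printed come from GENCODE release 29 or RefSeq.

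Counts of 15557 genes that passed filterByExpr (385 did not) were tested with edgeR 4.0.16 in R 4.3.3 (TMM, quasi-likelihood F-test, two-sided, Benjamini-Hochberg at 0.05). SE is the size of the log2 fold change over the square root of F. The biological coefficient of variation was 4.47%. The RPKM values deposited for siUPF1 served only to derive transcript length, and the 2 control columns of RPKM were left out because they carry the same name. Libraries of a group differed beyond sampling noise (chi-square over degrees of freedom 1.70 for siLuc, 2.85 for siUPF1), so none was treated as a copy. The control columns carry no replicate number. On data simulated for siUPF1 against siLuc (15492 genes, 200 changed) the test recovered 90% of 2-fold and 74% of 1.41-fold changes, with 8 false calls, at the spread edgeR estimated.

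Genes named were UPF1, members past the threshold, the 3 highest and 3 lowest per kilobase, the 3 largest uncalled changes, those nearest the threshold, the MRPS18 paralogs, members whose call changed under an alternative, the 3 smallest p of each list, ribosome proteins with other names, and the promoters printed. Members, lists and rules were chosen with earlier results of these data known, and the role groups and some named genes with their values known. Alternatives were RLE factors, library size alone, no filter, a 5 CPM filter, genes under 0.25 reads per base, the loess trend (span 0.3) on read density removed, each library left out, an adjusted p of 0.1, DESeq2 1.42.0 and voom from limma 3.58.1. MRPS24 was not analysed here.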

Additional observations from a re-analysis of the deposited data

How the results depend on the processing

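UPF1 kept its direction and its call under every alternative that held it. The run on genes under 0.25 reads per base did not, as UPF1 had 0.257. The ratio of large to small subunit genes was recomputed only under other library scalings, which cancel in it. The count of members called up was 1 with TMM, RLE factors, library size alone, no filter, a 5 CPM filter, the trend on read density removed and limma-voom. It was 0 with DESeq2 and 0 with only genes under 0.25 reads per base, where 6 members remain, and 0 to 2 with 1 library left out. The count called down was 0 in the main analysis, 2 with the trend removed (MRPL19 at -0.17, adjusted p = 0.0352, and MRPL44 at -0.19, adjusted p = 0.0427, edgeR), 2 at an adjusted p of 0.1, and 0 to 4 with 1 library left out. The members' median log2 fold change ran from -0.11 without siUPF1 replicate 1 to -0.02 without siUPF1 replicate 2. Directions turned for uncalled genes near 0. AURKAIP1 was 0.03 and MRPS34 0.08 with the trend removed. With 1 library left out, MRPS34 ran from -0.18 to 0.05, MRPL17 from -0.16 to 0.09, MRPS36 from -0.11 to 0.09, MRPS18C from -0.05 to 0.19 and PTCD3 from -0.03 to 0.10. PTCD3 was -0.01 among genes under 0.25 reads per base. The cause of these turns was not tested. Over 59 named genes, 565 values kept their direction and side of the threshold, 73 lost a call, 17 gained a call and 11 turned. Over all genes DESeq2 called 1274 up and 465 down, edgeR without control a 1444 and 552, and without control b 1583 and 610, against 2613 and 1422 with all libraries. No paired analysis was possible because the control count columns carry no replicate number. Where 1 library was left out, the remaining library of its group is assumed to vary like those of the other group. There were 2 libraries per group, with counts of 108 to 1794 per member and library. The 95% intervals rest on a spread that edgeR shared across genes, with no separate estimate for each gene. They cover variation between cultures only if the replicate libraries are separate cultures.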
